A study of Mus musculus with 41 samples.

Results

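A set of 7 genes, Sva, Slc15a2, Pianp, Gstt2, Gatm, Cdk2ap2 and Fxyd5, was followed through every library of a study of mouse splenic B cells. The set was selected on its measured values: its members were picked for a shift between the 2 genotypes of the study in most of the cell subsets. They are 7 of the 50763 genes in the count table. Because the genotype difference chose them, that difference is given here as a description with no test, and tests are kept to other contrasts and other genes. The selection named no numerical threshold, so no members just inside or just outside it can be given.

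The 7 genes share no single pathway. Slc15a2 encodes the peptide transporter PEPT2, which carries dipeptides and tripeptides into cells together with protons. Gatm encodes glycine amidinotransferase, the enzyme that makes the precursor of creatine, and Gstt2 encodes a theta class glutathione transferase, one of the enzymes that attach glutathione to reactive compounds. Fxyd5 (dysadherin) is a small membrane protein of the FXYD family, whose members regulate the sodium pump. Cdk2ap2 is a small protein related to Cdk2ap1, which binds the kinase Cdk2 and belongs to the chromatin remodelling complex NuRD. Pianp is a membrane protein that binds the immune receptor PILRα, and Sva (seminal vesicle antigen) is a secreted protein of the prolactin-inducible family known from the male reproductive tract. MEK1 and MEK2, encoded by Map2k1 and Map2k2, are the kinases that activate ERK downstream of receptors on B cells.

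Polyadenylated RNA was sequenced from B-lineage cells sorted from the spleens of mice aged 3 to 5 months, to ask how loss of Mek1 and Mek2 function alters each subset. Sorting on B220+ gave Plasma (CD138+) and, among CD138- cells, Immature (CD93+). CD93- cells gave germinal centre (GC; GL7+FAS+) and, among GL7-FAS- cells, Follicular (CD21+CD23+) and MarginalZone (CD21+CD23-). For a sixth subset, ABC, the labels state no gate. The wild type (wt) groups held 3 Immature, 3 GC, 3 ABC, 4 Follicular, 3 MarginalZone and 3 Plasma libraries, and the groups labelled 1Mek2 held 3, 4, 3, 4, 3 and 3 in the same order. The design text describes the mutant mice as Mek1flox/flox Mek2+/- Tg+/Vav1-icre, so Vav1-iCre, which is active in blood cells in general, removes Mek1 in more than B cells and 1 Mek2 allele is missing in every cell. No other genotype, such as Cre alone, was among the groups. A further 2 libraries, Immature and GC, came from animal 565. Their library names read Mek1ff, while their genotype fields read 1Mek2 for the Immature library and wt for the GC library. What Mek1ff stands for is not stated. They are shown apart and enter no comparison.

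Library names carry a number taken here as the animal, which gives 16 animals: 7 wt, 8 labelled 1Mek2 and 1 Mek1ff. An animal often gave several libraries, so libraries of 1 animal are not independent. Within a subset each library came from a different animal. Total counts per library ran from 7883989 to 34925667. The 3 wt ABC libraries stood apart, with 39.9% to 50.02% as many exon reads as gene-span counts and 2.38 to 38.4 CPM of the housekeeping gene Gapdh, against 72.7% to 89.7% and 176 to 326 CPM in the 3 ABC libraries labelled 1Mek2. The B cell gene Cd79a was at 122 to 600 CPM in the wt ABC libraries and at 2261 to 3238 CPM in those labelled 1Mek2. Plasmacytoid dendritic cell markers (Siglech, Ccr9 and Klk1) summed to 1345 to 1989 CPM in the former and to 1803, 413 and 5.97 CPM in the latter, so the groups overlapped. Follicular, MarginalZone and Plasma libraries were parted at the widest gap of the first principal component within each subset, which always sets some apart. By this rule 6 of 20 stood apart. They were Follicular wt replicate 4, Follicular 1Mek2 replicate 2, MarginalZone wt replicate 2, Plasma wt replicates 1 and 3 and Plasma 1Mek2 replicate 2. In Plasma the sides lay at -37.8 to -22.1 and at 25.6 to 40.9, and neither is the exception. MarginalZone wt replicate 1 (-10.9) lay between the library set apart (-87.6) and the others (22.4 to 27.1). By exon reads of Ddx3y, wt animal 562 and the 1Mek2-labelled animals 634 and 654 were males.

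Levels are in CPM, the gene-span counts (introns included) scaled to library size with TMM factors over all 41 libraries. Gapdh, Cd79a and the marker sums are the exception: they are CPM with no scaling factor. Their values are therefore not on the same scale as those of the 7 genes. TPM, which rest on exons and divide by transcript length, are named where they are used. Of the 7 genes, Sva, Pianp and Slc15a2 were near 0 or nearly so in many libraries and high in others. Gatm also ran from 0 CPM in a wt ABC library to 93.0 in a GC library labelled 1Mek2. It was at 0.366 to 1.27 CPM in MarginalZone libraries labelled 1Mek2. Outside the wt ABC libraries Gstt2, Cdk2ap2 and Fxyd5 differed by degree. Gene positions are from the count table (GRCm39).

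Sva lies on chromosome 6 from 42015328 to 42019785 on the plus strand. The 300 bases around its start, shown because reads of the gene beyond a trace came from 1 genotype, are from RefSeq (GRCm38.p6, chr6:42038144-42038443, plus strand). They run from 250 bases before to 50 after the start, and capitals mark the CCAAT box, searched as CCAAT on both strands (ATTGG where it is on the other).
Sva: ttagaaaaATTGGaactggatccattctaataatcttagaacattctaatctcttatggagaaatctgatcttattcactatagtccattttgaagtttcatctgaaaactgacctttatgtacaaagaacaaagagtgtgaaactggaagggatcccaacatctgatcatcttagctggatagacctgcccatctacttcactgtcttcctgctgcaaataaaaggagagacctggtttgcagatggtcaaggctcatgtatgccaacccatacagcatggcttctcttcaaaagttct
The window held 1 CCAAT match, at position -242 from the start. CCAAT was in 37.4% of 32851 promoter windows of the same length. The window held no match to the AP-1 motif TGANTCA, the ETS motif CCGGAAGT or the TATA box TATAAA, which were in 7.81%, 3.89% and 13.6% of the windows.

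In wt libraries Sva was at 0.0681, 0.0605 and 0.103 CPM in Immature, at 0.103, 0.0337 and 0 in GC, at 0.0834, 0 and 0 in ABC, and at 0 in all Follicular, MarginalZone and Plasma libraries. In all, 13 of 19 wt libraries had no read of it, and the 19 together had 13 reads. Libraries labelled 1Mek2 had 3.66, 4.91 and 4.07 CPM in Immature, 3.21, 7.21, 2.59 and 7.53 in GC (replicates 1 to 4), and 6.07, 2.42 and 3.28 in Plasma. In those 3 subsets the genotypes did not overlap. The other 3 subsets each had 1 library labelled 1Mek2 with no Sva read at all: 0, 4.52 and 7.71 CPM in ABC, 0, 3.49, 7.68 and 8.60 in Follicular, and 1.66, 0 and 4.76 in MarginalZone. All 3 libraries at 0 came from animal 634, a male, while the other male labelled 1Mek2, animal 654, had 3.28 to 7.68 CPM in its 4 libraries. So 17 of 20 libraries labelled 1Mek2 exceeded the highest wt library, and the split followed the animal.

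Pooled over the libraries of a group, the ratio of libraries labelled 1Mek2 to wt was 55.0 in Immature, 85.7 in GC and 182 in ABC, with exact 95% counting intervals of 26.4 to 138, 36.5 to 265 and 32.3 to 7201. Against a floor of 3 counts over the wt group, Sva was at least 194-fold higher in Follicular, 50.2-fold in MarginalZone and 80.4-fold in Plasma. These intervals and floors cover counting error only. Within the libraries labelled 1Mek2 Sva did not pass the test between any subset and Follicular, with log2 differences of -1.06 to 0.43. In bulk RNA, fewer cells that make a transcript and less of it per cell cannot be told apart.

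Pianp lies 83.0 Mb from Sva on the same chromosome, from 124973683 to 124980059 on the plus strand, and overlaps Cops7a on the other strand by 1184 bases, so reads of the overlap may belong to either gene where strand was not used. In wt libraries it ranged from 0 to 0.985 CPM, with a median of 0.0684. Among libraries labelled 1Mek2 it was at 2.44, 0.0384 and 3.42 CPM in Immature, 5.52, 0.0387, 0.0850 and 13.6 in GC (replicates 1 to 4), 64.0, 10.4 and 16.3 in ABC, 24.5, 10.9, 11.2 and 0.541 in Follicular, 14.9, 22.2 and 7.43 in MarginalZone, and 13.2, 3.50 and 6.49 in Plasma. The genotypes did not overlap in ABC, MarginalZone and Plasma. In Immature, GC and Follicular, 1 to 2 libraries labelled 1Mek2 lay within the wt range. Of 20 libraries labelled 1Mek2, 16 exceeded the highest wt library.

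The low Pianp libraries were both of animal 570, the single library of animal 713 and the GC library of animal 636, whose Immature, Follicular and Plasma libraries had 3.42, 10.9 and 3.50 CPM. Animal 634, which lacked Sva, had the highest Pianp levels in each of its 3 subsets. Sva and Pianp thus marked different sets of animals within the libraries labelled 1Mek2. Pooled ratios between the genotypes ran from 8.74 in Immature (exact 95% counting interval 5.53 to 14.496) to 513 in ABC (142 to 4239), where the wt libraries held 2 reads in all. These intervals cover counting error only, not the spread between animals, and are no test of the genotype difference. In exon reads the values were close to the gene-span counts, at a median of 98.4% over 15 libraries with at least 50 counts.

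Markers of neutrophils (S100a8, S100a9, Ly6g, Camp and Ltf) moved with Pianp in part of the libraries. Their summed level was at most 0.716 CPM in the 4 libraries labelled 1Mek2 with low Pianp and 3.07 to 3946 CPM in 15 of the other 16. The other library, MarginalZone of animal 634, had 0.195 CPM of them beside 22.2 CPM of Pianp. The part of these cells in the Pianp level was not tested. In the 3 wt Plasma libraries the same markers summed to 786 to 1882 CPM while Pianp was at 0, 0.354 and 0.

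Slc15a2 was the gene of the set that was lower in libraries labelled 1Mek2. It lies on chromosome 16 from 36570523 to 36605506 on the minus strand. Its RefSeq promoter (GRCm38.p6, chr16:36784913-36785212, minus strand) is shown because the gene differed in the opposite direction to the others. None of the 4 motifs was found in it, so it has no capitals.
Slc15a2: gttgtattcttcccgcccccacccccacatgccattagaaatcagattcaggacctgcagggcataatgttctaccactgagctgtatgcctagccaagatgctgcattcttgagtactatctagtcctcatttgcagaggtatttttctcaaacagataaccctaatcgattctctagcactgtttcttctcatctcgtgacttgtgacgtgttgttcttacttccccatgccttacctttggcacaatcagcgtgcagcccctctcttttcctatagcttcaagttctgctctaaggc
In wt libraries it had 65.8, 45.3 and 29.0 CPM in Immature, 104, 146 and 40.7 in GC, and 73.6, 77.3 and 23.6 in Plasma. In the same subsets libraries labelled 1Mek2 had 4.88, 12.3 and 1.16, then 8.65, 5.70, 2.64 and 6.16, then 8.78, 7.41 and 5.97 CPM. All of these lay below every wt library of their subset. The wt animals with low levels in other subsets, named below, gave no library of these subsets.

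The 3 other subsets overlapped. Follicular wt libraries had 84.6, 1.72, 2.73 and 4.74 CPM of Slc15a2 against 3.22, 0.658, 0.774 and 0.811 in those labelled 1Mek2. The Follicular log2 difference was -4.15 ± 1.31 (SE), and -1.15 without wt replicate 1. MarginalZone wt libraries had 50.2, 112 and 1.54 CPM against 1.37, 3.42 and 1.27, and ABC wt libraries had 2.09, 7.30 and 9.26 CPM against 5.30, 1.94 and 3.61. The wt libraries fell apart by animal: those of 358, 413 and 487 and all but the ABC library of 412 were high. Those of 562, 670 and 671 were low, at 1.54 to 9.26 CPM. Animals 562, 670 and 671 gave no Immature, GC or Plasma library, so the subsets without overlap held only wt animals with high levels. Animal 562 is a wt male, and 670 and 671 had no Ddx3y reads, so the low level was seen in both sexes. Every library labelled 1Mek2 lay below the wt median of 40.7 CPM.

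Low libraries differed in the share of Slc15a2 reads that lay in exons. Follicular wt replicates 2 and 3 had 44 and 83 gene-span counts of Slc15a2 but 1 exon read each, while the low replicate 4 had 133 and 68 and the high replicate 1 had 2039 and 654. Follicular libraries labelled 1Mek2 had 1, 6, 0 and 6 exon reads among 13 to 44 gene-span counts. Exon reads were over 60% of the counts in ABC 1Mek2 replicate 3 (54 of 89) and GC 1Mek2 replicate 4 (78 of 112), and were 0 in ABC wt replicate 2 and ABC 1Mek2 replicate 1 (of 79 and 77). Averaged over subsets, the description by exon reads was a log2 difference of -3.59, compared with -2.84 ± 0.50 (SE) by gene-span counts.

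**Figure D1:**
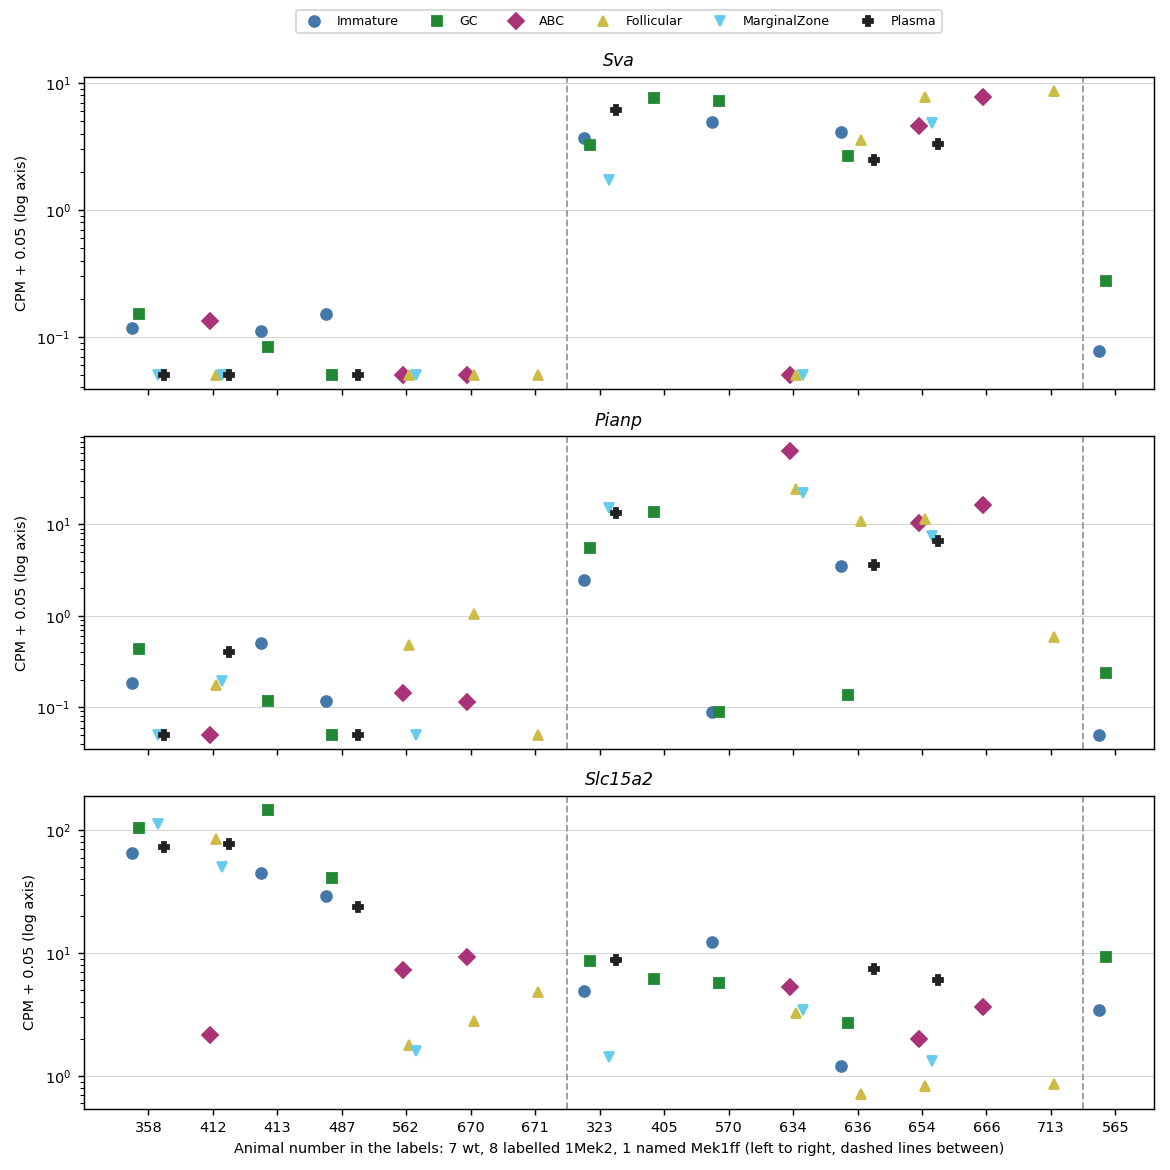
CPM + 0.05 on a log axis for Sva, Pianp and Slc15a2 in all 41 libraries, by animal (wt, labelled 1Mek2 and Mek1ff from left to right) with a symbol per subset. Sva is near 0 in all wt libraries and in the 3 libraries of animal 634, Pianp is low in animals 570 and 713, and Slc15a2 is low in wt animals 562, 670 and 671.

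Gstt2 lies on chromosome 10 from 75667676 to 75673253 on the minus strand, 5.27 Mb from Map2k2. It was at 85.9, 21.0 and 22.4 CPM in wt Immature libraries and at 145, 149 and 151 in those labelled 1Mek2. Plasma wt libraries had 52.4, 42.1 and 48.1 CPM against 117, 149 and 129, and Follicular wt libraries had 61.6, 57.4, 46.0 and 62.7 against 189, 73.4, 85.8 and 86.1. In these 3 subsets every library labelled 1Mek2 was above every wt library in CPM. In TPM the Follicular groups overlapped, at 55.8 to 72.2 in wt and 54.3 to 105 in 1Mek2 libraries. The ranges overlapped in GC, with 92.4 to 137 CPM in wt and 128 to 274 in 1Mek2 libraries, and in MarginalZone, with 9.77 to 87.1 and 57.5 to 126. The wt ABC libraries had 0.250, 0.370 and 2.46 CPM against 294, 121 and 67.0.

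Gatm lies on chromosome 2 from 122424954 to 122441758 on the minus strand. It was at 5.82, 4.96 and 2.87 CPM in wt Immature libraries and at 42.9, 35.7 and 57.5 in those labelled 1Mek2. In GC the wt libraries had 10.9, 20.8 and 19.02 CPM and those labelled 1Mek2 had 93.0, 69.9, 67.8 and 45.2. The groups did not overlap in either subset, nor in ABC, where wt libraries had 0.250, 0 and 0.194 CPM against 28.6, 37.1 and 14.53. The other 3 subsets overlapped, and there was no common direction: log2 differences were 0.38 ± 1.14 (SE) in Follicular, -1.499 ± 1.15 in MarginalZone and -0.22 ± 0.80 in Plasma. The Follicular value was -0.48 without 1Mek2 replicate 2 and 2.499 without wt replicate 4, and with 1 library left out the Plasma value ran from -0.98 to 0.36.

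Gatm followed the 6 libraries that stood apart instead. In Follicular it was at 13.7 and 12.2 CPM in the 2 such libraries and at 0.332 to 5.77 in the other 6. In MarginalZone the single such library had 4.78 CPM and the other 5 had 0.268 to 1.47, and in Plasma the 3 such libraries had 45.1, 65.8 and 52.5 CPM and the other 3 had 6.93 to 21.3. In each of these subsets the libraries that stood apart were the highest. Immature libraries labelled 1Mek2 also carried more plasma cell marker RNA (Sdc1, Jchain and Prdm1), with a sum of 1949.8 to 5477 CPM against 201 to 838 in wt. Its part in the Gatm level was not tested.

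Cdk2ap2 lies on chromosome 19 from 4146204 to 4149019 on the plus strand, and had the highest mean TPM of the 7 in every group but the 2 Plasma groups, where Fxyd5 was higher. Follicular wt libraries had 415, 496, 348 and 506 CPM against 1381, 1055, 777 and 1049, without overlap. MarginalZone wt libraries had 299, 336 and 194 CPM against 868, 295 and 844, with 1 library labelled 1Mek2 below the highest wt library. Immature, GC and Plasma ranges overlapped, at 215 to 282 against 282 to 360.2 CPM, 178 to 374 against 266 to 491, and 546 to 733 against 709.7 to 850.1. The wt ABC libraries had 1.502, 1.94 and 47.5 CPM against 1479.6, 571 and 766.

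In TPM the Cdk2ap2 difference was absent or opposite in 2 subsets, with mean TPM of 409 in wt and 401 in 1Mek2 libraries of Immature cells and of 449.7 and 324 in Plasma. The promoter of Cdk2ap2 is shown (RefSeq, GRCm38.p6, chr19:4097101-4097400, plus strand) because it held 6 CCAAT matches, the most in the set, and that of Gatm (GRCm38.p6, chr2:122611228-122611527, minus strand) because it held 2. Capitals mark the matches.
Cdk2ap2: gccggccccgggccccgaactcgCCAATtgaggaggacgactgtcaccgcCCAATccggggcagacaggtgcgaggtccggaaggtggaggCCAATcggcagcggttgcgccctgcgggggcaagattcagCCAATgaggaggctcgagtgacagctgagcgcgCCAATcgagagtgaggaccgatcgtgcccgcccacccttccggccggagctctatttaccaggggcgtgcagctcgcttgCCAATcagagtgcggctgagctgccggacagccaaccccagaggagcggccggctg
Gatm: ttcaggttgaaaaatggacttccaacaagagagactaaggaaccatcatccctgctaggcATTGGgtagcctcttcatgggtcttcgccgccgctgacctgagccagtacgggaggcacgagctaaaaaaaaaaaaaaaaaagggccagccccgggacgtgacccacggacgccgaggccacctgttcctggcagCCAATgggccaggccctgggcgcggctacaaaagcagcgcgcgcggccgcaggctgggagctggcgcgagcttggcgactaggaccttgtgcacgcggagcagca
The windows of Fxyd5, the 3 windows of Pianp and the windows above made up 8 windows for 6 genes. Neither AP-1, ETS nor TATA letters were found in any of them. GC content was 67.7% for Cdk2ap2, 60.7% for Gatm, 57.3% for Fxyd5, 46.3% for Slc15a2 and 38.7% for Sva, beside a median of 52.7% over all windows. A match is a description of letters, not of a bound site.

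Fxyd5 lies on chromosome 7 from 30732153 to 30741565 on the minus strand, and Gm38984 overlaps it on the other strand over 5298 bases. In 38 libraries with at least 50 counts, exon reads came to 102% to 195% of its gene-span counts. How reads over overlapping genes were assigned is not stated, so TPM is given beside CPM. In GC, wt libraries had 2.28, 6.24 and 8.15 CPM against 16.4, 22.2, 24.5 and 27.4, or 10.9, 25.2 and 24.8 TPM against 68.8, 76.3, 75.3 and 119. In Immature, wt libraries had 14.9, 9.92 and 7.66 CPM against 19.7, 28.1 and 16.2. In MarginalZone, wt libraries had 24.4, 32.1 and 29.6 CPM against 80.4, 56.5 and 50.1. The genotypes did not overlap in these subsets in CPM. In TPM 2 of them overlapped: the lowest library labelled 1Mek2 and the highest wt library had 68.1 and 78.1 TPM in Immature, and 137 and 148 TPM in MarginalZone.

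In Plasma the 2 genotypes were alike in CPM of Fxyd5, at 235, 304 and 238 against 255, 236 and 205, with a log2 difference of -0.02 ± 0.30 (SE), whose size is small beside its error. Follicular wt libraries had 58.6, 76.5, 65.7 and 65.1 CPM, and 3 of the 4 labelled 1Mek2 had 61.7 to 76.6. The remaining library, replicate 1 from animal 634, had 241 CPM, and without it the Follicular log2 difference was 0.06 in place of 0.76. In mean TPM the Follicular groups had 277 and 269.8, and the Plasma groups 652 and 342. The wt ABC libraries had 0.501, 0.185 and 3.17 CPM against 172, 131 and 71.7.

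**Figure D2:**
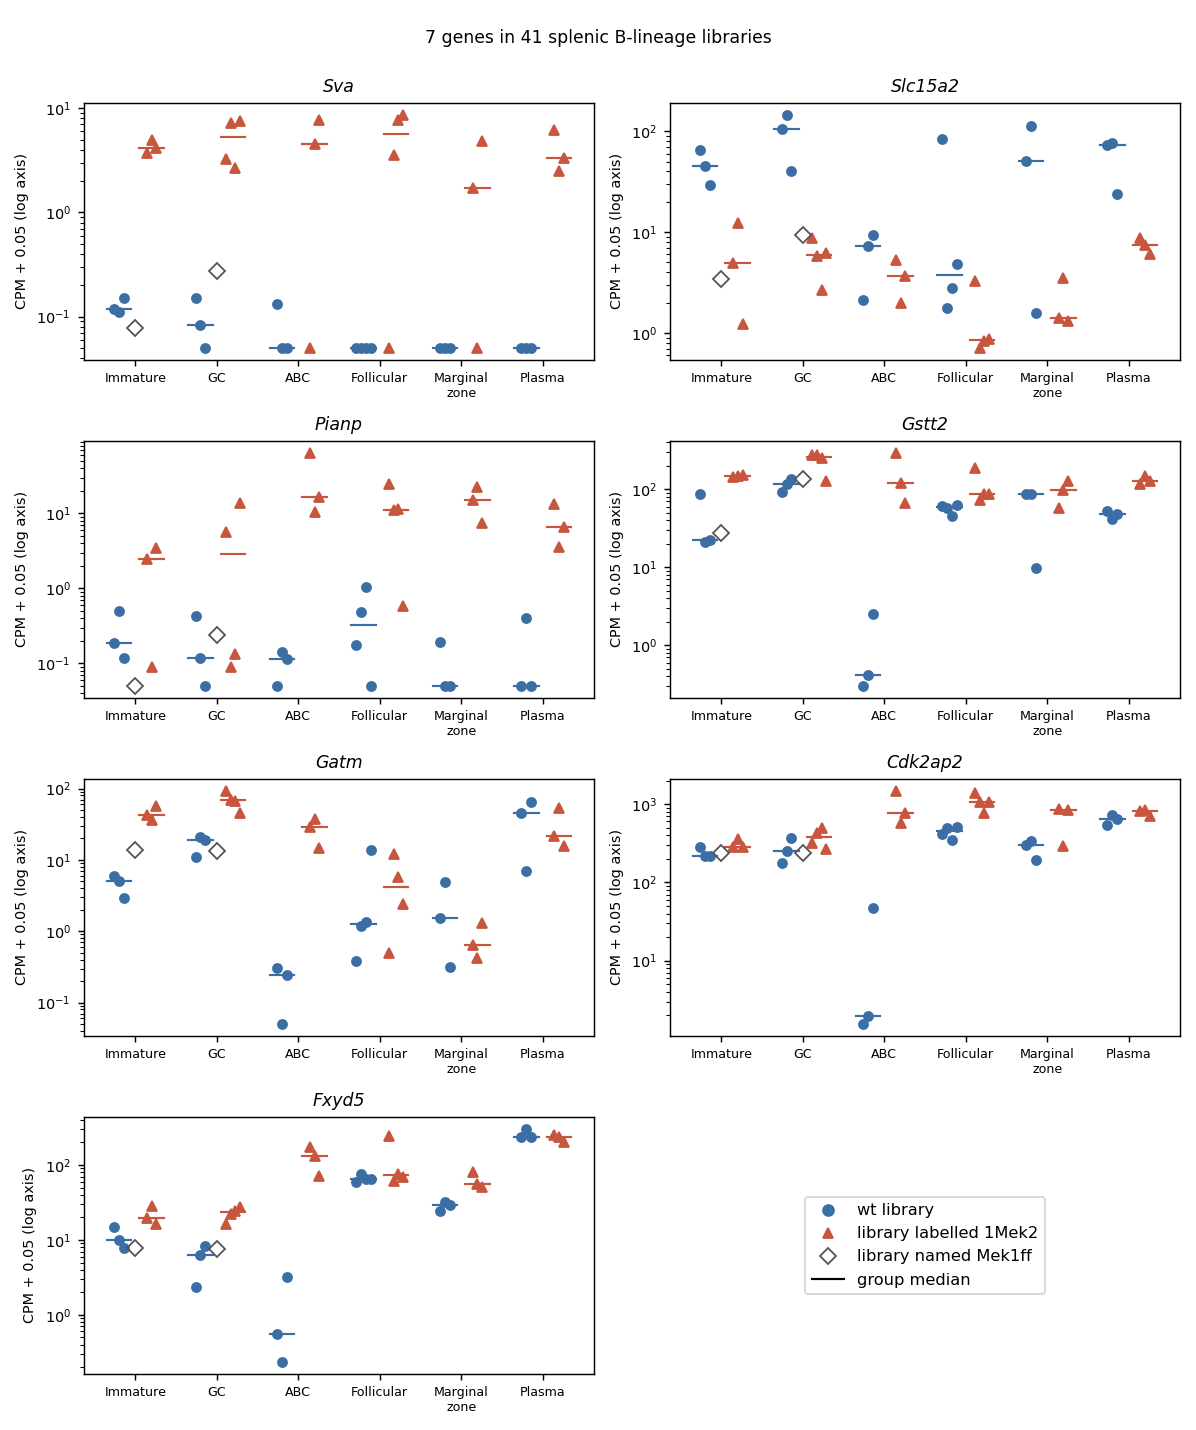
CPM + 0.05 on a log axis for the 7 genes by subset, with a point per library, bars at group medians and open diamonds for the 2 libraries named Mek1ff. The wt ABC libraries lie below all others for Gstt2, Cdk2ap2 and Gatm, and in Immature, GC and Plasma all libraries labelled 1Mek2 lie below wt for Slc15a2.

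Counts of genes without overlap between the genotypes are set beside the same share over all 24524 genes, and nothing is read from them since this contrast chose the 7 genes. In Immature, 4 of the 7 were higher in every library labelled 1Mek2 (5.68% of all genes) and 1, Slc15a2, was lower (8.43%). In GC 3 were higher (2.19%) and 1 lower (3.98%), and in Plasma 3 were higher (7.69%) and 1 lower (8.77%). In ABC 5 were higher (10%) and none lower (8.01%). In Follicular 2 were higher (2.83%) and none lower (3.03%), and in MarginalZone 2 were higher (4.67%) and none lower (5.57%). No gene of the set was free of overlap in all 6 subsets. Without animal 634 the number without overlap was 4 in Follicular and 5 in MarginalZone, and without animal 562 it was 4 in MarginalZone. Leaving out an animal can only keep or raise such a number. The share over all genes was not computed for these smaller groups, so nothing is read from the change.

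**Figure D3:**
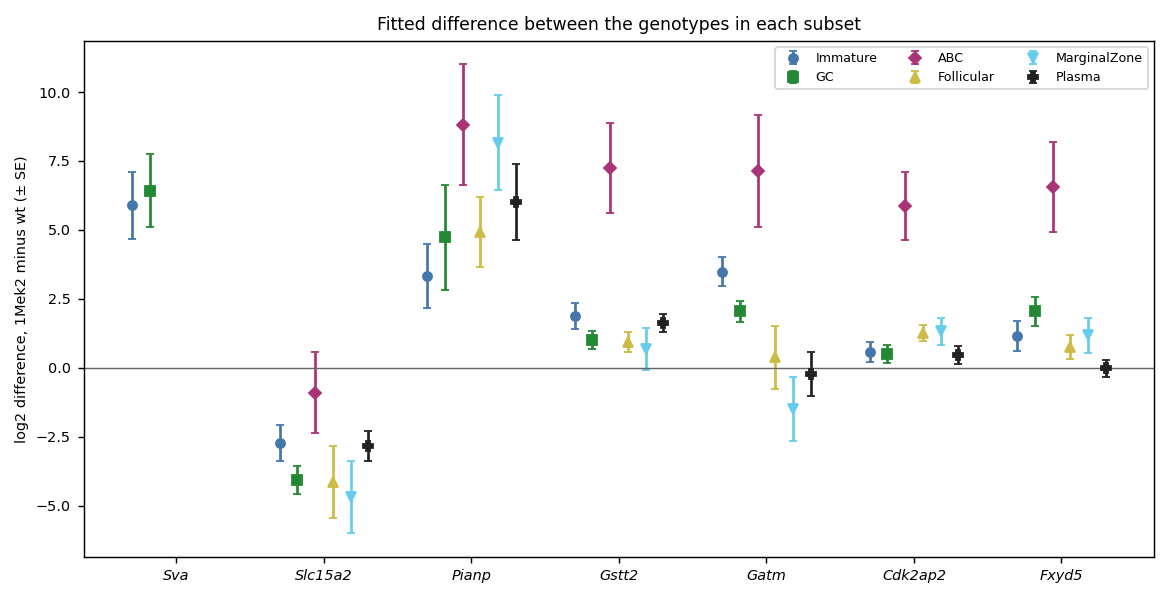
Fitted log2 difference, libraries labelled 1Mek2 minus wt, in each subset (edgeR, ± SE) as a description. Sva is shown where it was fitted and the wt libraries had reads. The ABC values of Gstt2, Gatm, Cdk2ap2 and Fxyd5 are the largest of each gene, and Gatm and Fxyd5 lie at or near 0 in Plasma.

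ABC carried much of the averaged difference of Gstt2, Gatm, Cdk2ap2 and Fxyd5. Averaged over the 6 subsets, the log2 difference (± SE) was 2.32 ± 0.29 for Gstt2, 2.05 ± 0.43 for Gatm, 1.81 ± 0.21 for Cdk2ap2 and 1.98 ± 0.26 for Fxyd5. Without ABC, whose wt libraries had few exon reads relative to their gene-span counts, the same values were 1.38, 1.06, 0.81 and 1.02. Those of Slc15a2 were -2.84 with and -3.20 without ABC. Sva did not enter the genotype fits of ABC, Follicular and MarginalZone because too few libraries had counts of it. Fitted values of Sva and Pianp depend on the small count that is added before the logarithm.

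The 2 libraries named Mek1ff did not fall on 1 side for all genes. For Sva the Immature library had 1 read (0.0275 CPM) and the GC library 6 (0.223 CPM), the latter above the highest wt GC library. Pianp was at 0 and 0.186 CPM. Slc15a2 was at 3.38 and 9.27 CPM, both below every wt library of the subset (29.0 and 40.7 at the lowest), the latter just above the highest GC library labelled 1Mek2 (8.65). Gstt2 was at 27.5 and 136 CPM, Cdk2ap2 at 237 and 238 and Fxyd5 at 7.75 and 7.45, all within the wt range of their subset. Gatm was at 13.8 CPM in Immature, between the groups, and at 13.4 in GC, within the wt range. In all, 6 of 14 values lay within the wt range only, 1 within the 1Mek2 range only, 2 within both, 3 between the groups and 2 below both.

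How the 7 genes differed between subsets was tested separately in wt and in 1Mek2 libraries, each subset against Follicular, with edgeR's quasi-likelihood test and Benjamini-Hochberg adjustment over all genes. Libraries entered these tests as independent, although some animals gave both subsets. Fxyd5 gave the most calls. In wt it was lower in Immature (log2 difference -2.04 ± 0.35 SE, edgeR adjusted p = 0.000612) and GC (-3.33 ± 0.44, adjusted p = 0.000775) and higher in Plasma (2.13 ± 0.27, adjusted p = 0.00100). In libraries labelled 1Mek2 it was again lower in Immature (-1.97 ± 0.52, adjusted p = 0.0128) and GC (-1.93 ± 0.47, adjusted p = 0.00873). Its Plasma value there was 1.36 ± 0.50 and did not pass (adjusted p = 0.0877). Whether the genotypes differ in these contrasts was not tested.

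Gstt2 was higher in GC than in Follicular cells in wt (1.32 ± 0.27, edgeR adjusted p = 0.00834) and in 1Mek2 libraries (1.48 ± 0.41, adjusted p = 0.0163). The wt call of Gstt2 was lost with no filter (1.01, edgeR adjusted p = 0.0662) and in 1 fit of 39 libraries (1.16, adjusted p = 0.127). Gatm was higher in Immature (3.54 ± 0.81, adjusted p = 0.00605) and GC (4.09 ± 0.77, adjusted p = 0.00238) libraries labelled 1Mek2. In wt its values were 0.73 ± 1.00 and 2.43 ± 1.01, which did not pass (adjusted p = 0.604 and 0.114). Cdk2ap2 was lower in Immature (-1.36 ± 0.33, adjusted p = 0.00778) and GC (-1.11 ± 0.32, adjusted p = 0.0210) libraries labelled 1Mek2. Slc15a2 was higher in GC (2.48 ± 0.73, adjusted p = 0.0228) and Plasma (2.75 ± 0.70, adjusted p = 0.0192) libraries labelled 1Mek2, at 5.78 and 7.39 CPM on average against 1.37 in Follicular. In wt the spread between animals was wide and Slc15a2 passed in no subset.

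In wt ABC libraries Gstt2 (-5.51 ± 1.16, edgeR adjusted p = 0.0127), Cdk2ap2 (-4.51 ± 1.13, adjusted p = 0.0226) and Fxyd5 (-5.40 ± 1.197, adjusted p = 0.0151) were lower than in Follicular. In those same libraries Gapdh was at 2.38 to 38.4 CPM against 122 to 205 in wt Follicular cells, and its part was not tested. The ABC call of Cdk2ap2 was lost without Follicular wt replicate 4 (adjusted p = 0.0586). In libraries labelled 1Mek2 the calls of Cdk2ap2 and Fxyd5 in Immature were lost without Immature replicate 2 (adjusted p = 0.0776 and 0.0792) or replicate 4 (0.0988 and 0.105), and that of Slc15a2 in Plasma was lost without any 1 of Plasma replicates 1, 2 and 3 and Follicular replicates 3 and 4 (0.0549 to 0.0674) and without the libraries that stand apart (0.0653). In GC, leaving out replicate 1 lost the calls of Slc15a2 (0.0702), Gstt2 (0.0503) and Cdk2ap2 (0.0781). Those of Slc15a2 (0.0701) and Gstt2 (0.0556) were also lost without Follicular replicate 4, and that of Slc15a2 without Follicular replicate 3 (0.0543). In 1 fit of 39 libraries the 1Mek2 calls of Cdk2ap2 in Immature (0.0598) and GC (0.107) and of Slc15a2 in Plasma (0.0864) were lost. In exon reads the 1Mek2 call of Fxyd5 in Immature was lost (0.0505).

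In counts, wt calls were 1 of 6 tested genes of the set in Immature (39.4% of all genes were called), 2 of 6 in GC (20.3%), 3 of 5 in ABC (20.2%), 0 of 5 in MarginalZone (0.34%) and 1 of 5 in Plasma (17.7%). The wt count in Immature was 2 without Follicular replicate 1 (6897 of 19940 genes called in all) and 3 without replicate 4 (11680 of 19777). In Plasma it was 2 without Plasma replicate 2 (3267 of 16148) or Follicular replicate 1 (1910 of 15119) and 3 without Follicular replicate 4 (4616 of 15082). The 1Mek2 count was 5 in Immature without Follicular replicate 1 (4428 of 16126 genes called in all) and 1 without Immature replicate 2 (3765 of 16587). It was 2 in GC without GC replicate 1 (3475 of 15199) and 3 without Follicular replicate 4 (4106 of 15583). In Plasma it was 3 without Follicular replicate 1 (3188 of 14500) and 2 without Follicular replicate 2 (3848 of 14496). Sva passed the filter on low counts in none of these wt fits and Pianp only in Immature and GC. In libraries labelled 1Mek2, where all 7 passed it, 3 were called in Immature (30.9%), 5 in GC (30.9%), 0 in ABC (0.0%), 0 in MarginalZone (2.78%) and 1 in Plasma (19.9%). Plasma and Follicular libraries labelled 1Mek2 share animals 636 and 654, and with the animal as a block, which leaves 1 residual degree of freedom, edgeR called 3: Slc15a2 (3.52 ± 0.77, adjusted p = 4.45e-05), Fxyd5 (1.99 ± 0.48, adjusted p = 0.000280) and Gatm (2.09 ± 0.52, adjusted p = 0.000443). With that block 3997 of 14822 genes were called in all. In the ABC comparison of libraries labelled 1Mek2 edgeR called no gene, 1115 genes had an unadjusted p under 0.05, and DESeq2 called 401. The median log2 difference of all genes between Immature and Follicular wt libraries was 0.47 with TMM factors and 0.30 with DESeq2's size factors.

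**Figure D4:**
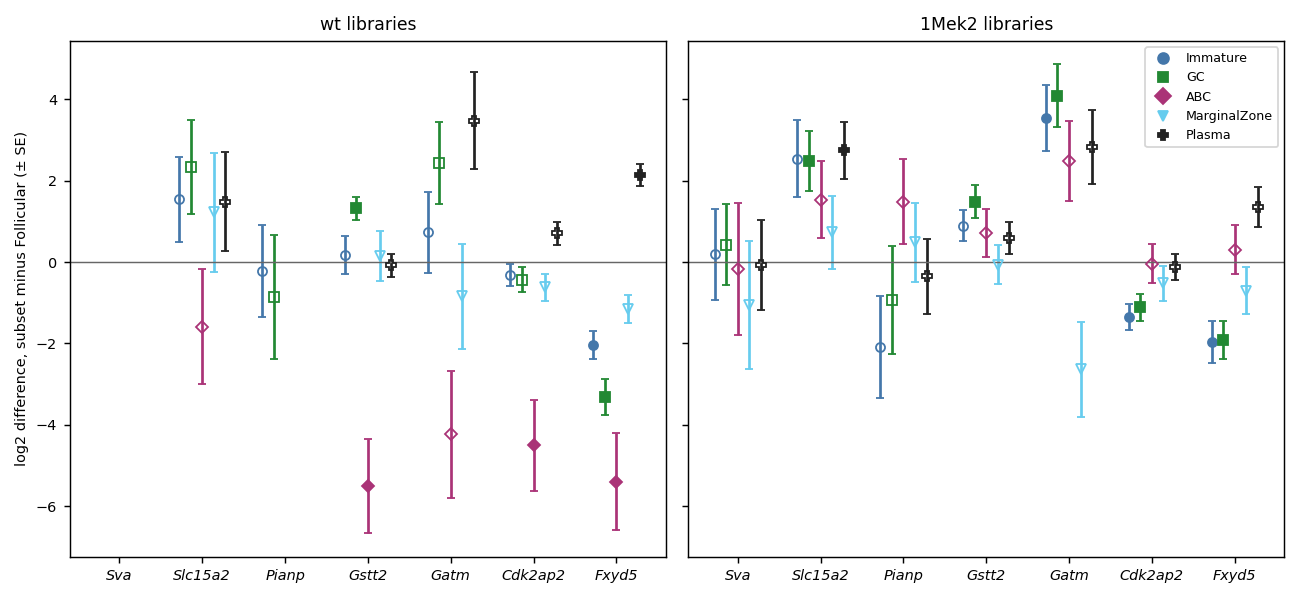
Log2 difference of each subset from Follicular (edgeR, ± SE) in wt (left) and in libraries labelled 1Mek2 (right), with filled symbols where the adjusted p was at most 0.05. Fxyd5 is below 0 in Immature and GC in both panels, and Gatm is called in Immature and GC on the right.

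Neighbours of the 7 genes, 3 on each side, were not used in the choice and were tested with limma for the genotype difference averaged over the 6 subsets, with the animal as a random block. Of 42 neighbours, 9 were higher in libraries labelled 1Mek2 and 0 lower, beside 4.90% and 1.52% of all 24524 genes. Their median log2 difference was 0.40, and that of all genes was -0.06. The 9 sat beside 3 of the genes. Around Cdk2ap2, 4 of 6 were higher, among them Gstp3 (2.59 ± 0.60, limma adjusted p = 0.00543), Gstp1 (1.69 ± 0.23, adjusted p = 1.34e-05) and Ndufv1 (1.69 ± 0.34, adjusted p = 0.00126). Gstp1 and Gstp3 are glutathione transferases of the pi class, and Ndufv1 is a subunit of respiratory complex I. The gene next to Cdk2ap2 on the other side, Pitpnm1, differed by 1.01 ± 0.42 and did not pass (adjusted p = 0.153).

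Around Gstt2, 3 of 6 were higher: Gstt1 (1.93 ± 0.61, limma adjusted p = 0.0470), Mif (1.37 ± 0.28, adjusted p = 0.00164), which encodes a cytokine, and Derl3 (1.34 ± 0.39, adjusted p = 0.0285), a protein of endoplasmic reticulum degradation. Gstt1 reads may be shared with close relatives of its family. The nearest gene on the lower side, Gstt4, differed by 0.54 ± 0.43. Beside Pianp, Cops7a (1.01 ± 0.28, adjusted p = 0.0216), which overlaps it, and Mlf2 (1.44 ± 0.33, adjusted p = 0.00425) were higher. On its other side Zfp384 differed by 0.38 ± 0.54. Cops7a is a subunit of the COP9 signalosome.

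No neighbour passed beside the other 4 genes. The nearest were Sval2 (-0.03 ± 0.34) and Gstk1 (0.47 ± 0.63) for Sva, Ildr1 (1.29 ± 0.41, limma adjusted p = 0.0526) and Eaf2 (0.84 ± 0.35, adjusted p = 0.168) for Slc15a2, Gm34325 (-0.45 ± 0.34) and Afg2b (-0.59 ± 0.63) for Gatm, and Gm42377 (0.61 ± 0.54) and Hpn (0.20 ± 0.59) for Fxyd5. Eaf2, 7.74 kb from Slc15a2, was thus not lower with it. Without ABC, 3 of the 42 neighbours passed: Mif (1.39, limma adjusted p = 0.00255), Gstp1 (1.13, adjusted p = 0.00116) and Ndufv1 (0.97, adjusted p = 0.0260). These 3 calls were kept in all 24 alternatives. In exon reads Cops7a (0.76, adjusted p = 0.118) and Derl3 (1.15, adjusted p = 0.0587) did not pass. With 1 animal left out, Cops7a was lost without 358, 412, 562, 636 or 654 (adjusted p of 0.05675 to 0.117). Gstt1 was lost without 323, 358, 413, 487, 570, 636, 654 or 713 (0.0595 to 0.161), and Derl3 without 358, 412, 413, 562, 570, 636, 654 or 666 (0.0511 to 0.0963).

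**Figure D5:**
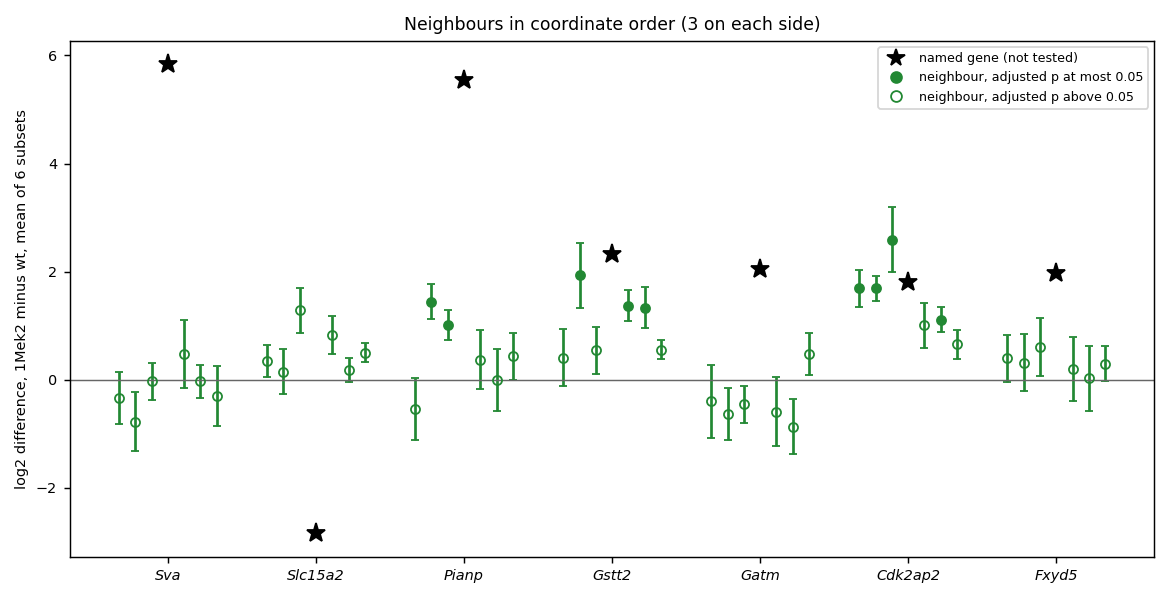
Averaged log2 difference, libraries labelled 1Mek2 minus wt, of the 3 neighbours on each side of each gene in coordinate order (circles, limma, ± SE, filled where the adjusted p was at most 0.05), with the gene itself as a star. Filled circles lie beside Pianp, Gstt2 and Cdk2ap2.

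Map2k1 and Map2k2 were read in the same fit. Map2k2, on chromosome 10 from 80941749 to 80960531, was higher in libraries labelled 1Mek2 by 1.11 ± 0.30 (limma adjusted p = 0.0199). Map2k1, on chromosome 9 from 64093066 to 64160887, differed by -0.36 ± 0.17 and did not pass (adjusted p = 0.247). Map2k2 was thus not lower, although 1 of its alleles is missing under the label. Gene-span counts do not tell which allele made the reads, so this level gives no check of the label. For Map2k1, the floxed gene, gene-span counts do not single out a deleted exon and give no check of the label. The Map2k2 call held without ABC (0.90, adjusted p = 0.0127) and was lost in exon reads (adjusted p = 0.0896), without the libraries that stand apart (0.0864) and without animal 358 (0.113), 487 (0.0564) or 654 (0.0545). Map2k1 passed without animal 670 (-0.51, adjusted p = 0.0295). Within 5 Mb of Map2k2, 29 of 247 tested genes were higher and 2 lower (4.90% and 1.52% of all genes), with a median of 0.34. These 31 calls became 16 without ABC, 18 in exon reads, 14 without animal 358 and 18 without animal 654. Within 5 Mb of Map2k1, 5 of 125 were higher and 1 lower, with a median of 0.00, and these 6 became 2 without ABC, 3 without animal 358 and 2 without animal 654. Gstt2 lies just outside that distance from Map2k2.

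Genes related to the 7 by function were listed in 8 groups, and 78 of 91 were tested. Of these, 7 were higher (4.90% of all genes) and 1 lower (1.52%). Among 21 glutathione transferases 4 were higher: Gstp1, Gstp3 and Gstt1, which are neighbours above, and Gstm4 (1.72 ± 0.52, limma adjusted p = 0.0372). Of 5 creatine genes 1 was higher, the brain type creatine kinase Ckb (1.91 ± 0.57, adjusted p = 0.0346), and Gamt, which completes creatine synthesis, differed by 1.04 ± 0.66. Of 9 FXYD and sodium pump genes 1 was higher, Fxyd2 (1.89 ± 0.59, adjusted p = 0.0466). None of 4 peptide transporters, 14 genes of NuRD and Cdk2, 3 PILR receptors and 1 tested relative of Sva passed. In the ERK cascade, Map2k2 was higher and the kinase Braf lower (-0.74 ± 0.18, adjusted p = 0.00838) among 21 genes. In exon reads Braf was at -0.41 and did not pass (limma adjusted p = 0.521), nor did Ckb (0.0870), Gstm4 (0.0818) and Fxyd2 (0.0668). With 1 animal left out, Braf was lost without 654 (adjusted p = 0.05005), Ckb without 412, 413, 487, 562, 570, 636, 654 or 666 (0.0557 to 0.165), and Gstm4 without 323, 358, 412, 413, 562, 570 or 636 (0.0613 to 0.1503). Fxyd2 was lost without 323, 358, 405, 412, 413, 487, 562, 570, 634, 636, 654 or 713 (0.0511 to 0.178). Without ABC 2 of the 8 calls were kept, Gstp1 and Map2k2, and without the libraries that stand apart 2, Gstp1 and Gstp3 (adjusted p = 0.000169 and 0.0264).

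Likeness across libraries was described by Pearson's r of log2(CPM + 1) over 39 libraries after the mean of each subset was subtracted, with no test. These points share animals, depth and library type. The genotype difference was not removed, so the shift that chose the 7 genes enters r. The sign of r among the 7 genes is thus no separate result. Among the 7, Cdk2ap2 and Fxyd5 were most alike (r = 0.91), then Gstt2 with Cdk2ap2 and with Fxyd5 (both r = 0.87). Sva and Slc15a2 ran opposite (r = -0.66), and Sva and Pianp were less alike (r = 0.50). Of all other genes at 5 CPM or more, those most like Sva were Nfil3 (r = 0.83), Socs1 (0.77) and Gpr137b-ps (0.76). For Slc15a2 they were Ifi206 (0.73), Invs (0.66) and Eya1 (0.66), and for Pianp Gm13394 (0.87), 1500011B03Rik (0.78) and the neutrophil gene Camp (0.77). For Gatm they were Gm5547 (0.81), Jchain (0.77) and Lipc (0.77).

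The other 3 genes had higher values of r. Those nearest to Gstt2 were Ddt (r = 0.93), which lies on the same chromosome from 75607067 to 75609208, Tuba1c (0.92) and Ndufb6 (0.92). Those nearest to Cdk2ap2 were Rpl15 (0.97), Psmb8 (0.97) and Nhp2 (0.97), and those nearest to Fxyd5 were Mrps11, Timm10 and Mrpl34 (all 0.92). The wt ABC libraries, in which Gapdh was low too, are among these points.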

How the data were processed

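Bulk RNA of 41 libraries was analysed from tables the authors deposited: raw counts per gene over 1 interval per gene, introns included, and TPM values per gene on exonic length. Per the submitters' processing notes, the tools were STAR 2.7.11a, featureCounts 2.0.3 and Trim Galore 0.6.5, with GRCm39. No column was left unmapped (0). Exon reads were recovered from the deposited TPM and gene lengths; 100% of values up to 5000 reads came out whole within 0.02. CPM used TMM factors, except for Gapdh, Cd79a and the marker sums, which had no scaling factor.

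Subsets were compared with Follicular within a genotype by edgeR 4.0.16 (quasi-likelihood, filterByExpr). The genotype difference averaged over subsets used limma 3.58.1 (voom) with the animal as a block, since several libraries share an animal. R was 4.3.3 and p-values were two-sided with Benjamini-Hochberg adjustment at 0.05. Those of the averaged fit rest on the spread of 39 libraries, within and between animals, and on 1 correlation within animals shared by all genes. A gene that varies more by animal than that correlation allows can get too small a p. The subset tests treated libraries as independent, although some animals gave both subsets, so that pairing was not used. Scripts were tested on simulated data. Alternatives were RLE factors, no filter, DESeq2 1.42.0, 1 fit of 39 libraries, exon reads, the block, a sex term, the Mek1ff libraries under their GEO genotype, and leaving out each library or animal. Leaving out ABC or the libraries that stand apart was chosen after seeing the data. The members and lists were chosen with earlier results of these data known. Named were the members, Map2k1, Map2k2, neighbours and related genes past the test, the nearest neighbour on each side, and the 3 most alike genes of each member. Gamt was named after its value was seen. The values of 1 neighbour are not reported here. Promoters are from RefSeq (GRCm38.p6), matched for 6 of 7 members; no coordinates were converted between builds. Reads carry no molecular identifiers.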

Additional observations from a re-analysis of the deposited data

Results flagged for a closer look

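Some single libraries lay far from the rest of their group, by Dixon's 95% criterion for groups of 4. For independent, normally spread values chance gives about 1 such value in 20 sets, and 20 sets of 1 gene in 1 group were examined. They reuse the same libraries across genes and hold CPM not on a log scale. The rate is thus a rough guide, and no excess is read from it. Follicular 1Mek2 replicate 1, from animal 634, was the highest of its group for 3 genes: Slc15a2 at 3.222 CPM (others 0.658 to 0.811), Gstt2 at 189.2 CPM (others 73.4 to 86.1) and Fxyd5 at 240.8 CPM (others 61.7 to 76.6). The same library had no Sva read. Follicular wt replicate 1, from animal 412, had 84.63 CPM of Slc15a2 while the other 3 had 1.72 to 4.74. Follicular wt replicate 4, one of the libraries that stand apart, had 13.65 CPM of Gatm while the others had 0.332 to 1.31. GC 1Mek2 replicate 4, from animal 405, was the lowest of its group for Gstt2, at 127.5 CPM against 252 to 274.

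Signal above every wt library was present in the 2 libraries named Mek1ff, which entered no comparison. The GC library had 0.2235 CPM of Sva, against 0 to 0.103 in wt GC libraries. The Immature library had 13.77 CPM of Gatm, against 2.87 to 5.82 in wt Immature libraries.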

How the results depend on the processing

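No call of the reported fits changed sign under the alternatives. Subset values that did not pass were not followed in this way. With the animal as a block, that of Slc15a2 in wt ABC against Follicular went from -1.59 to 0.71, and others changed sign too. Of 339 genotype descriptions recomputed under the alternatives, 6 changed sign, all of Gatm in Follicular and Plasma or of Fxyd5 in Plasma. Members called against Follicular in wt were, for Immature, 3 with no filter (18109 of 37542 genes called in all; 1 member as reported). Without the libraries that stand apart they were 3 for Immature (11680 of 19777 genes). For GC they were 1 in 1 fit of 39 libraries (8621 of 24524 genes, 2 members as reported). For MarginalZone they were 1 by DESeq2 (501 of 14699 genes, 0 members as reported). For Plasma they were 3 by DESeq2 (4005 of 15563 genes) and 2 in 1 fit (2694 of 24524), with 1 as reported. Without the libraries that stand apart a single wt Plasma library is left, so no count is given. In libraries labelled 1Mek2 they were 5 for Immature with no filter (12971 of 36001 genes, 3 members as reported). For Plasma they were 2 with RLE factors (2927 of 14822 genes) and 3 by DESeq2 (3889 of 14822), with 1 as reported. They were 0 in 1 fit (2488 of 24524) and 0 without the libraries that stand apart (3483 of 15514). Leaving out 1 library gave, in wt, 1 to 3 for Immature and for Plasma and 2 to 3 for GC and for ABC. In 1Mek2 it gave 1 to 5 for Immature, 2 to 5 for GC and 0 to 3 for Plasma. The number of all genes called changed in these fits too, as given at the end.

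The replicate block, here the animal, could be fitted where at least 2 animals gave both subsets. It gave 3 members for Plasma in 1Mek2 (1 as reported), beside 3997 of 14822 genes in all, and changed no member count in ABC and MarginalZone. The pairing rests on the animal number in the library names. Without the block the averaged fit called 11 neighbours (9 as reported), 9 related genes (8) and 2234 genes in all (1574).

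In the averaged genotype fit, genes called within 5 Mb of Map2k1 (6 as reported) were 11 by edgeR with no block (2 choices changed; 8 with no block in limma), 2 without ABC and 10 without the libraries that stand apart. Those within 5 Mb of Map2k2 (31) were 18 in exon reads and 16 without ABC. All genes called were 2643 by edgeR with no block, 895 in exon reads and 638 without ABC. Related genes were 4 in exon reads, 2 without ABC and 2 without the libraries that stand apart, and neighbours were 3 without ABC. Leaving out 1 animal gave 6 to 12 neighbours, 3 to 9 related genes, 2 to 9 near Map2k1, 14 to 42 near Map2k2 and 773 to 2191 in all.

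Members without overlap in Immature (5 as reported) were 2 with the Mek1ff libraries under their GEO genotype. In Follicular (2) they were 1 in CPM with no scaling factor and 1 in TPM, and in MarginalZone (2) 1 in TPM. Leaving out 1 animal, which can only keep or raise the count, gave 5 to 6 for Immature and for ABC and 4 to 6 for GC. It gave 4 to 5 for Plasma, 2 to 5 for MarginalZone and 2 to 4 for Follicular. The share over all genes was not computed for any of these alternatives. The cause was not tested.

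Over the alternatives, genes called against Follicular in wt ran from 999 to 18109 in Immature (7938 as reported), 1828 to 8621 for GC (3208), 927 to 6427 for ABC (2903), 11 to 501 in MarginalZone (50) and 1859 to 6313 in Plasma (2754). In 1Mek2 they ran from 1620 to 12971 (5030), 3026 to 9574 (4527), 0 to 874 (0), 35 to 1951 (373) and 1780 to 3997 (2944).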
